A study of Mus musculus with 4 samples.

Results

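The doublecortin, stathmin and collapsin response mediator protein (CRMP) genes encode regulators of the microtubule cytoskeleton that young neurons make in large amounts. A list of 10 of them was followed by gene symbol in RNA-seq of sorted mouse retinal cells: 2 doublecortin genes (Dcx and Dclk1), 3 stathmin genes (Stmn2, Stmn3 and Stmn4) and 5 CRMP genes (Crmp1, Dpysl2, Dpysl3, Dpysl4 and Dpysl5). All 10 were found, among 21828 genes analyzed. The cells came from retinas of pHes1-EGFP mice of the FVB/N strain, in which a Hes1 promoter fragment drives a destabilized EGFP, and no treatment was given to any group. Retinas were taken at postnatal day 1 (P1) and day 4 (P4), dissociated with trypsin and sorted into EGFP-positive cells (pHes1_EPCs) and EGFP-negative cells (pHes1_ENCs). The transgene is shared by all groups, so the fractions differ by reporter fluorescence at the sort and not by genotype. There were 4 libraries, 1 for each fraction at each age, and the number of animals in each is not given in the sources used here.

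Doublecortin, the product of Dcx, and the related kinase made from Dclk1 bind along microtubules and stabilize them in migrating neurons and growing axons. Stathmins bind free tubulin and favour microtubule disassembly, and Stmn2, Stmn3 and Stmn4 are the neuronal forms, held on membranes of the Golgi and the growth cone. CRMPs bind tubulin dimers and actin regulators, carry the growth cone response to semaphorins, and assemble with each other into tetramers. In the postnatal mouse retina the last neurons, mostly rods and bipolar cells, and the Müller glia are born from a common pool of progenitors, and doublecortin and its kin are commonly used to mark cells that have begun neuronal differentiation.

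Levels are FPKM, fragments scaled by transcript length and by the mapped fragments of the library, which can be set side by side between genes. A difference is log2(FPKM + 1) in one library minus that in another, and a gene is called higher or lower here when it passes 1, which is 2-fold on that scale. It understates the ratio of genes with low FPKM. With 1 library in each group there is no replicate error and no test, so every difference compares those libraries. Ranges of ratios come from the 95% interval that Cufflinks gave for each FPKM and cover counting error only. In 10 of the 40 member values, all in Stmn2, Stmn3, Stmn4 or Dpysl4, the listed FPKM lay above its own interval, and ranges of their ratios need not be centred on the ratio.

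At P1 the group was lower in pHes1_EPCs. Of the 10 genes, 9 were lower by more than 2-fold, which was true of 6.79% of all genes analyzed and of 11.1% of the 8404 genes that reached an FPKM of 10 in any library, called expressed genes here. None of the 10 was higher by more than 2-fold, a call that 6.1% of all genes and 10.9% of expressed genes reached. The median difference over the 10 genes was -2.20, against a median of 0.04 over expressed genes. The summed FPKM of the 10 genes was 611 in P1 pHes1_ENCs and 142 in P1 pHes1_EPCs. In such pooled cells, fewer cells that express a gene and less RNA per cell cannot be told apart.

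At P4 the group was divided. Dclk1, Stmn4, Dpysl2 and Dpysl4 passed 2-fold with the higher level in pHes1_EPCs, so 4 of the 10, where 9.85% of all genes and 17.4% of expressed genes were. Crmp1 and Dpysl3 passed it in the other direction, so 2 of the 10, where 5.42% of all genes and 9.94% of expressed genes were. Stmn2, Stmn3 and Dpysl5 were lower by less than 2-fold. Dcx was lower by 0.63 on the log2(FPKM + 1) scale but by 5.78 times in FPKM, since both its P4 values are below the pseudocount. The summed FPKM of the 10 genes was 292 in P4 pHes1_ENCs and 270 in P4 pHes1_EPCs, nearer to each other than at P1. This nearness depends on scaling, since all genes analyzed summed to 303876 FPKM in P4 pHes1_ENCs and 372016 in P4 pHes1_EPCs. The sums of the 10 genes were not rescaled. Dpysl3 (134 and 24.2) and Dpysl4 (48.7 and 158) differed in opposite directions between these libraries.

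**Figure D1:**
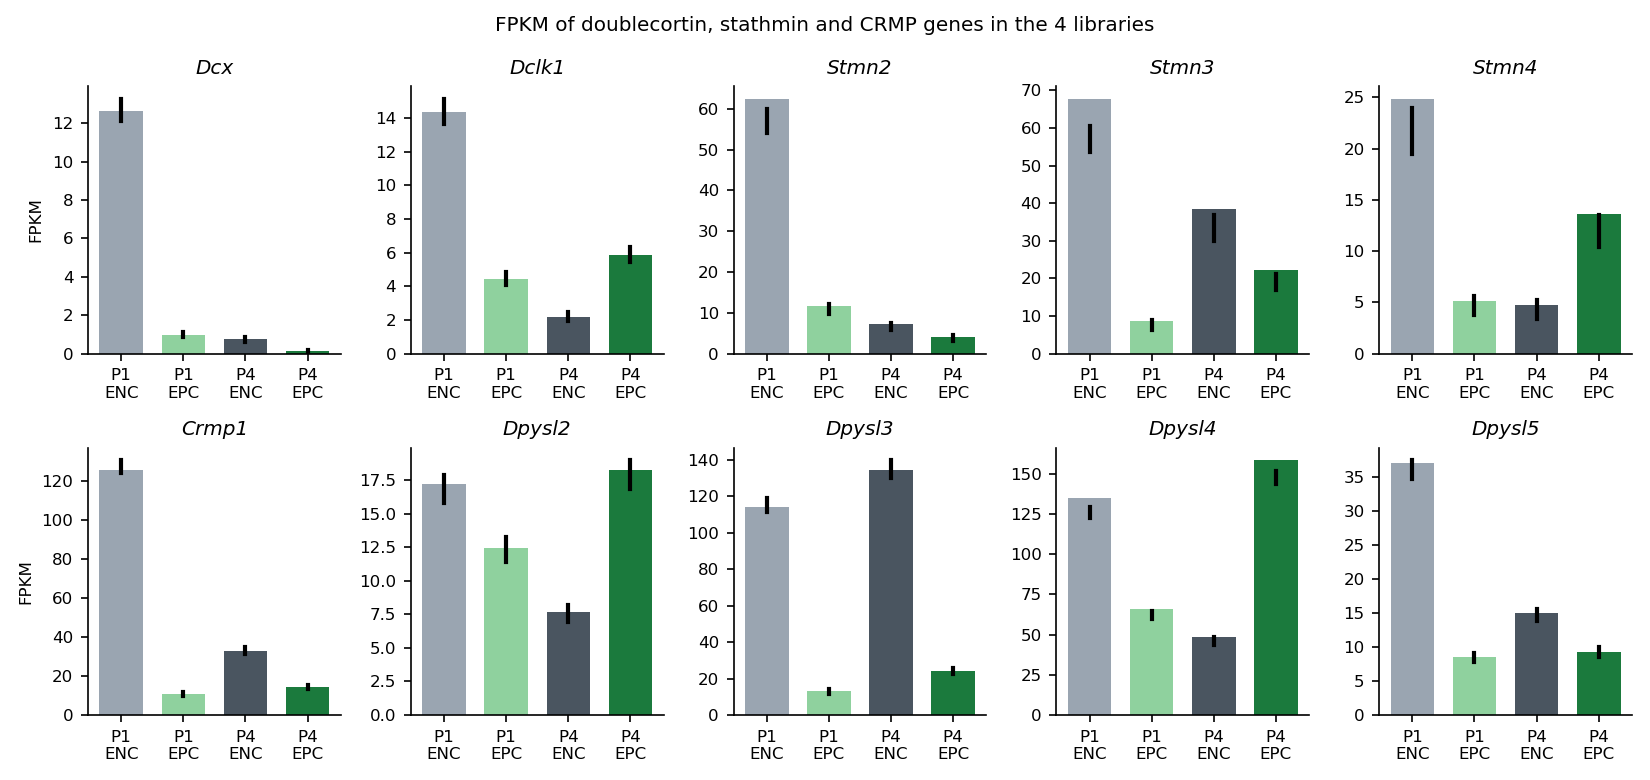
FPKM (vertical axis, linear, from 0) of each of the 10 genes in the 4 libraries, with P1 libraries in light and P4 libraries in dark colors, pHes1_ENCs in gray and pHes1_EPCs in green, and black lines for the 95% Cufflinks intervals. The P1 pHes1_ENC bar stands above the P1 pHes1_EPC bar in all 10 panels, whereas at P4 the green bar is the higher one for Dclk1, Stmn4, Dpysl2 and Dpysl4. Bars that overtop their black line belong to the 4 genes whose FPKM lay above its interval.

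Among the doublecortin genes, Dcx had an FPKM of 12.6 in P1 pHes1_ENCs, 0.988 in P1 pHes1_EPCs, 0.740 in P4 pHes1_ENCs and 0.128 in P4 pHes1_EPCs. P1 pHes1_ENCs stood far above the other libraries, and the intervals of P1 pHes1_EPCs and P4 pHes1_ENCs overlapped. The FPKM in pHes1_ENCs was 12.8 times that in pHes1_EPCs at P1 (range 10.7 to 15.6) and 5.78 times at P4 (range 3.55 to 10.3). On the log2(FPKM + 1) scale these are differences of -2.78 and -0.63, so Dcx was not called at P4 on that scale, although it was with a pseudocount of 0.1 (-1.88). The lowest of its values rested on the fewest fragments of any member, about 31.5 as implied by the interval.

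Dclk1 had an FPKM of 14.4 in P1 pHes1_ENCs, 4.45 in P1 pHes1_EPCs, 2.20 in P4 pHes1_ENCs and 5.88 in P4 pHes1_EPCs, and no intervals of neighbours in this order overlapped. pHes1_ENCs were the higher fraction at P1, with a ratio of 3.23 (range 2.83 to 3.73), and the lower one at P4, where pHes1_EPCs were at 2.68 times pHes1_ENCs (range 2.21 to 3.27). The differences were -1.50 and 1.11. The FPKM of Dclk1 was 1.14 times that of Dcx in P1 pHes1_ENCs and 45.9 times in P4 pHes1_EPCs, so these related genes parted most in the latter library. The table gives 1 FPKM for Dclk1, which has 2 listed transcription starts, and the shorter forms made from an internal start of this gene lack the doublecortin domains.

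Among the stathmins, Stmn2, which is abundant in growth cones, had an FPKM of 62.5 in P1 pHes1_ENCs, 11.7 in P1 pHes1_EPCs, 7.23 in P4 pHes1_ENCs and 4.02 in P4 pHes1_EPCs. Both libraries of P4 were below both of P1, and no neighbouring intervals overlapped. The ratio of pHes1_ENCs to pHes1_EPCs was 5.33 at P1 (range 4.48 to 6.17) and 1.80 at P4 (range 1.26 to 2.42), with differences of -2.32 and -0.71.

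Stmn3 stood at 67.8 in P1 pHes1_ENCs, 8.58 in P1 pHes1_EPCs, 38.5 in P4 pHes1_ENCs and 22.2 in P4 pHes1_EPCs. Here the order followed the fraction, with both pHes1_ENC libraries above both pHes1_EPC libraries. The ratio of pHes1_ENCs to pHes1_EPCs was 7.90 at P1 (range 6.04 to 9.70) and 1.74 at P4 (range 1.42 to 2.17), with differences of -2.84 and -0.77.

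Stmn4 stood at 24.9 in P1 pHes1_ENCs, 5.15 in P1 pHes1_EPCs, 4.69 in P4 pHes1_ENCs and 13.6 in P4 pHes1_EPCs. The order of the fractions was reversed at P4, and the intervals of P1 pHes1_EPCs and P4 pHes1_ENCs overlapped. At P1 pHes1_ENCs were 4.83 times pHes1_EPCs (range 3.48 to 6.47), and at P4 pHes1_EPCs were 2.89 times pHes1_ENCs (range 2.00 to 4.05). From a difference of -2.07 at P1 to 1.36 at P4 it shifted by 3.43, more than any other of the 10 genes.

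The 3 neuronal stathmins therefore took different shares of their sum in each library. Stmn2 made up 40.3% of it in P1 pHes1_ENCs and 46.1% in P1 pHes1_EPCs, but 14.3% and 10.1% in the corresponding P4 libraries. Stmn3 was the larger part at P4, with 76.4% in pHes1_ENCs and 55.8% in pHes1_EPCs. Stmn4 reached 34.1% in P4 pHes1_EPCs and was between 9.31% and 20.2% in the other libraries. The FPKM of Stmn4 was 0.649 times that of Stmn2 in P4 pHes1_ENCs and 3.38 times in P4 pHes1_EPCs.

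Among the CRMP genes, Crmp1 had an FPKM of 126 in P1 pHes1_ENCs, 10.8 in P1 pHes1_EPCs, 33.0 in P4 pHes1_ENCs and 14.2 in P4 pHes1_EPCs. Both pHes1_ENC libraries were above both pHes1_EPC libraries. Its P1 difference was -3.43, a ratio of 11.7 (range 10.6 to 13.2), and its P4 difference was -1.16, a ratio of 2.32 (range 2.05 to 2.63).

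Dpysl3, which encodes CRMP4, had an FPKM of 114 in P1 pHes1_ENCs, 12.9 in P1 pHes1_EPCs, 134 in P4 pHes1_ENCs and 24.2 in P4 pHes1_EPCs. It was well above in pHes1_ENCs at both ages, with ratios of pHes1_ENCs to pHes1_EPCs of 8.85 at P1 (range 7.93 to 10.1) and 5.54 at P4 (range 5.01 to 6.20). Differences were -3.05 and -2.42, and the shift of 0.63 was the smallest of the 10.

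Dpysl4, which encodes CRMP3, stood at 135 in P1 pHes1_ENCs, 66.0 in P1 pHes1_EPCs, 48.7 in P4 pHes1_ENCs and 158 in P4 pHes1_EPCs, the highest FPKM of any member in any library. The P1 difference of -1.02 was just past the 2-fold limit, with a ratio of 2.04 whose range of 1.90 to 2.17 includes 2. At P4 pHes1_EPCs were 3.25 times pHes1_ENCs (range 2.97 to 3.47), a difference of 1.68.

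Dpysl2, which encodes CRMP2, the form best known for axon specification, was the member that differed least at P1. Its FPKM was 17.2 in P1 pHes1_ENCs, 12.5 in P1 pHes1_EPCs, 7.65 in P4 pHes1_ENCs and 18.3 in P4 pHes1_EPCs, and the intervals of P4 pHes1_EPCs and P1 pHes1_ENCs overlapped. The P1 difference was -0.44, and at P4 pHes1_EPCs were 2.39 times pHes1_ENCs (range 2.04 to 2.75), a difference of 1.16.

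Dpysl5, which encodes CRMP5, had an FPKM of 37.0 in P1 pHes1_ENCs, 8.47 in P1 pHes1_EPCs, 15.0 in P4 pHes1_ENCs and 9.32 in P4 pHes1_EPCs, and the intervals of both pHes1_EPC libraries overlapped. The ratio of pHes1_ENCs to pHes1_EPCs was 4.37 at P1 (range 3.79 to 4.85) and 1.61 at P4 (range 1.38 to 1.83), with differences of -2.01 and -0.63.

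As a family, the CRMP genes summed to 429 FPKM in P1 pHes1_ENCs, 111 in P1 pHes1_EPCs, 239 in P4 pHes1_ENCs and 224 in P4 pHes1_EPCs. As deposited, without rescaling to equal totals, the P4 sums were near each other, but their makeup was not alike. Dpysl3 made up 56.3% of the sum in P4 pHes1_ENCs and 10.8% in P4 pHes1_EPCs, whereas Dpysl4 made up 20.4% and 70.6%. The ratio of Dpysl4 to Dpysl3 was 1.18 in P1 pHes1_ENCs, 5.11 in P1 pHes1_EPCs, 0.363 in P4 pHes1_ENCs and 6.54 in P4 pHes1_EPCs. Each Dpysl4 FPKM lay above its own interval, and the ratio of 1.18 lay above its range of 1.03 to 1.16. Crmp1 was 29.3% of the sum in P1 pHes1_ENCs and between 6.33% and 13.8% in the other libraries.

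**Figure D2:**
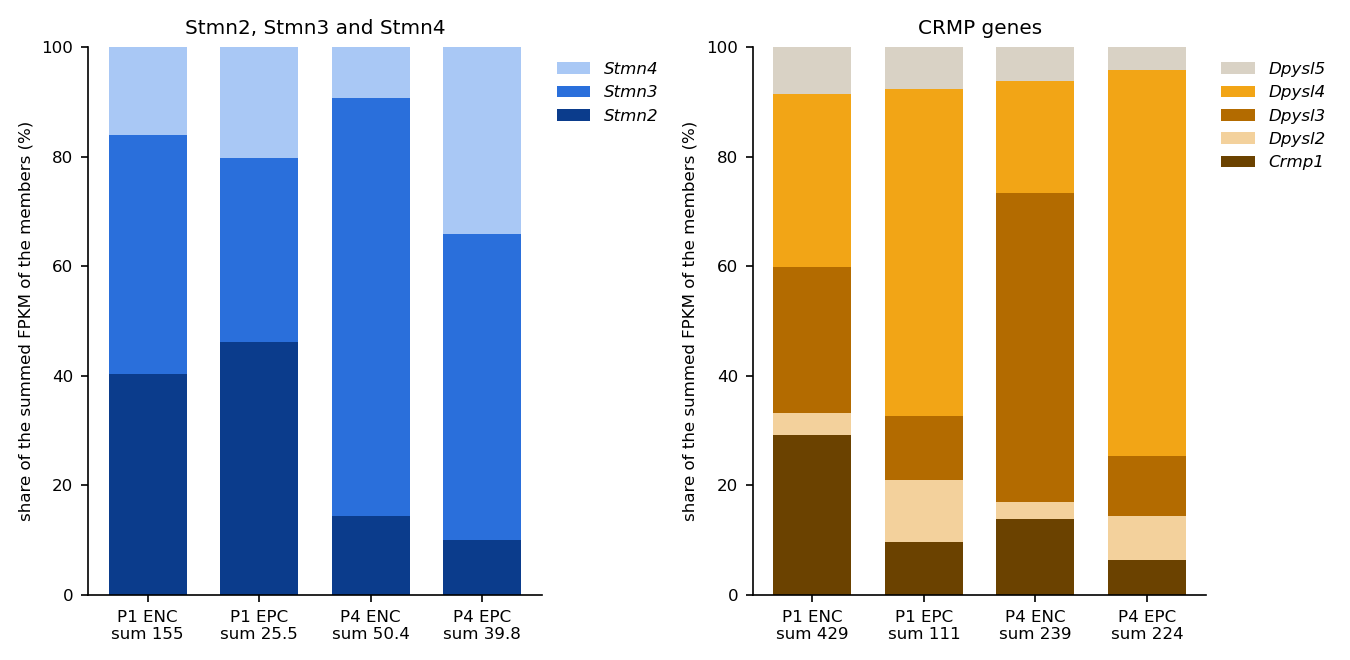
Share of each gene in the summed FPKM of the 3 neuronal stathmins (left) and of the 5 CRMP genes (right), in percent, in each library, with the sum of FPKM under each bar. Dpysl4 fills 70.6% of the CRMP bar of P4 pHes1_EPCs and Dpysl3 56.3% of that of P4 pHes1_ENCs, and Stmn4 is largest in P4 pHes1_EPCs.

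**Figure D3:**
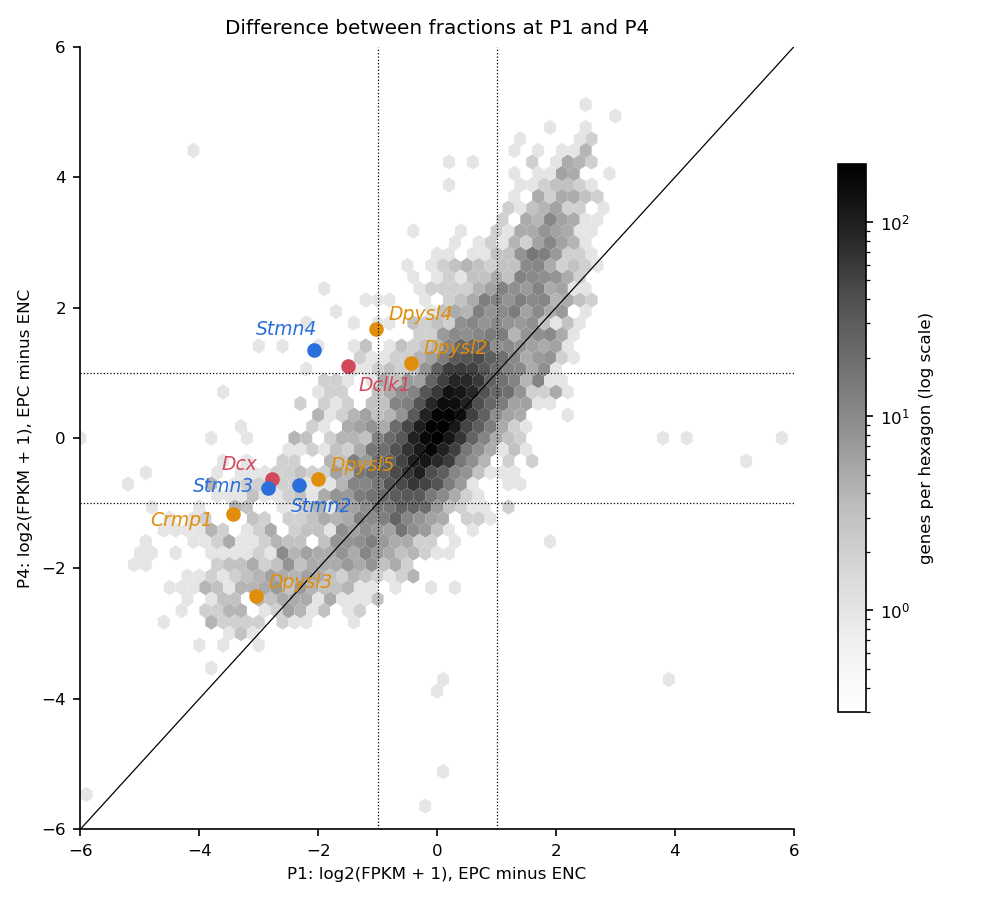
Difference of log2(FPKM + 1) between fractions, pHes1_EPCs minus pHes1_ENCs, at P1 (horizontal) and P4 (vertical), for doublecortin genes in red, stathmins in blue and CRMP genes in orange. Gray hexagons count expressed genes (8398 drawn, 6 lie outside the axes), dotted lines mark 2-fold, and the diagonal marks equal differences. All 10 genes lie above the diagonal, and Dclk1, Stmn4 and Dpysl4 lie in the corner that is lower at P1 and higher at P4.

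The differences of all 10 genes were higher at P4 than at P1, with shifts of 0.63 to 3.43 and a median of 2.11. A shift above 0 was seen in 51% of all genes and 64.6% of expressed genes. A shift above 1, which 9 of the 10 genes had, was seen in 7.18% and 11.7%, and one above 2, which 6 of the 10 had, in 1.29% and 2.67%. Of these 6, Dcx and Stmn3 were just above 2, at 2.15 and 2.08. The shift of Dcx was 1.67 with a pseudocount of 0.1 and 1.15 with none, and that of Stmn3 was 1.90 after rescaling to the same total. The sign went from below 0 at P1 to above 0 at P4 in 4 of the 10 genes, and in 12.7% of all genes and 14.6% of expressed genes. Dclk1, Stmn4 and Dpysl4 were past 2-fold in both directions, lower in P1 and higher in P4 pHes1_EPCs, a reversal that 27 of all genes, or 0.124%, and 0.262% of expressed genes showed. The P4 difference of Dclk1 was 0.90 after rescaling to the same total, 0.94 under median-of-ratios scaling and 0.79 under quantile normalization. For Dpysl4 the range of the P1 ratio, 1.90 to 2.17, includes 2. Mapt, which encodes the microtubule-binding protein tau, was among these 27 genes, with an FPKM of 32.3, 3.14, 4.92 and 14.4 in P1 pHes1_ENCs, P1 pHes1_EPCs, P4 pHes1_ENCs and P4 pHes1_EPCs. Mapt was named after its values were seen.

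The scaling of the libraries bears on the P4 calls. FPKM summed to between 277433 and 372016 over the genes analyzed, with the highest sum in P4 pHes1_EPCs. When FPKM were rescaled to the same total, the median P4 difference of expressed genes moved by -0.28, and that of the change with age in pHes1_EPCs by -0.32. Stmn4 and Dpysl4 remained more than 2-fold higher in P4 pHes1_EPCs under this scaling, with differences of 1.11 and 1.39, but Dclk1 and Dpysl2 were at 0.90 each and no longer past the limit. Median-of-ratios scaling and quantile normalization likewise left Stmn4 and Dpysl4 as the 2 genes past it.

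Between P1 and P4, the pHes1_ENC libraries differed in the same direction for most of the group. Of the 10 genes, 8 were more than 2-fold lower at P4, where 5.94% of all genes and 9.31% of expressed genes were, and none was more than 2-fold higher (2.77% of all genes and 5.28% of expressed genes). The median change was -1.67. Dcx was 17.1 times lower (range 14.1 to 21.3), Stmn2 8.65 times (range 7.13 to 10.3) and Dclk1 6.55 times (range 5.57 to 7.79). Stmn3 was lower by less than 2-fold (-0.80), and Dpysl3 was higher by a ratio of 1.17 (range 1.09 to 1.25).

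In pHes1_EPCs the group did not move together with age. Stmn3, Stmn4 and Dpysl4 were more than 2-fold higher at P4, so 3 of the 10, where 4.17% of all genes and 8.82% of expressed genes were, with ratios of 2.59 (range 1.91 to 3.37), 2.64 (range 1.85 to 3.65) and 2.40 (range 2.23 to 2.55). After rescaling to the same total their changes were 0.97, 0.96 and 0.92, and none of the 10 was past the limit in this direction. Stmn2 was the gene called lower at P4, by a ratio of 2.92 (range 2.09 to 3.85), a call that 2.57% of all genes and 4.34% of expressed genes reached. Dcx was lower by a ratio of 7.72 (range 4.84 to 13.5), from 0.988 to 0.128 FPKM, which is -0.82 on the log2(FPKM + 1) scale. Dpysl3 changed by 0.86, Dpysl2 by 0.52, Crmp1 by 0.37, Dclk1 by 0.34 and Dpysl5 by 0.12, all under 2-fold.

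Thus 7 of the 10 genes, namely Dclk1, Stmn3, Stmn4, Crmp1, Dpysl2, Dpysl4 and Dpysl5, were lower at P4 in pHes1_ENCs and higher at P4 in pHes1_EPCs by any amount, where 19.3% of all genes and 23.3% of expressed genes were. For Dpysl5 the pHes1_EPC intervals overlapped, and its sign there turned to -0.18 after rescaling to the same total. The comparisons by fraction and by age use the same 4 libraries. A high value in P1 pHes1_ENCs or a low one in P4 pHes1_ENCs therefore enters both, and the shifts as well.

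**Figure D4:**
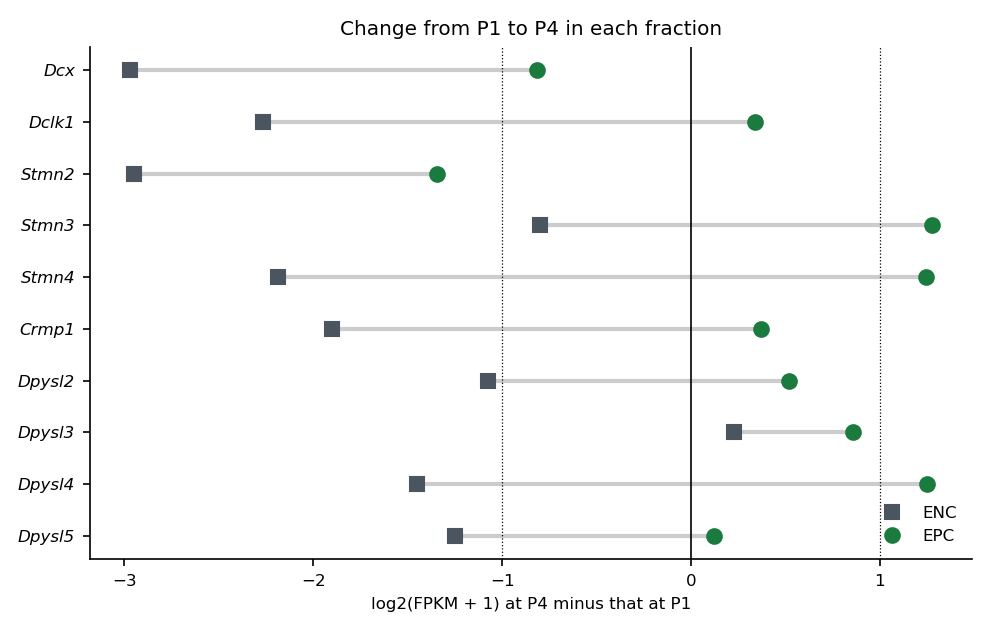
Change from P1 to P4 on the log2(FPKM + 1) scale in pHes1_ENCs (gray squares) and pHes1_EPCs (green circles) for each of the 10 genes, with dotted lines at 2-fold. The green circle is to the right of the gray square in every row, by 0.63 for Dpysl3 and 3.43 for Stmn4, and only Dcx and Stmn2 are left of 0 in both fractions.

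Of relatives that are not on the list, Stmn1, the stathmin that dividing cells also express, had an FPKM of 842 in P1 pHes1_ENCs, 844 in P1 pHes1_EPCs, 432 in P4 pHes1_ENCs and 709 in P4 pHes1_EPCs, and was not past 2-fold at either age (0.00 and 0.71). Its FPKM was between 84.4% and 97.1% of that of the 4 stathmins together, and it too lay above its own interval in each library. Dclk2, a doublecortin-domain kinase, had an FPKM of 24.8, 35.98, 7.90 and 21.9 in the same order, higher in pHes1_EPCs at both ages (0.52 and 1.36). Dclk3, another kinase gene of this name, was at or below an FPKM of 0.238 in all 4 libraries.

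Likeness of pattern to Dcx depended on the pseudocount, which 3 of its 4 values lie below. Likeness was taken as the Euclidean distance over the 4 libraries between log2(FPKM + 1) values centred on each gene's mean, among 6998 genes whose mean FPKM was 10 or more, and it rests on 4 points that share their libraries. The distance from Dcx was 0.42 for Stmn2, 0.94 for Ina, which encodes a neurofilament protein, and 0.98 for Lmtk3. Without a pseudocount, an alternative chosen after seeing the data, it was 1.41 for Ina, the nearest of 6987 genes, and 1.91 for Stmn2, which ranked 5. From Stmn2, which has a mean FPKM above this limit whereas Dcx does not, the nearest genes were Lmtk3 at 1.04, Ina at 1.06 and Kif5c, a kinesin gene, at 1.13. From Dpysl3 the nearest were Glcci1 at 0.06, Ece1 at 0.22 and Sez6l2 at 0.30. Glcci1 had an FPKM of 121, 12.99, 137 and 25.3 in P1 pHes1_ENCs, P1 pHes1_EPCs, P4 pHes1_ENCs and P4 pHes1_EPCs, which is close to Dpysl3 in level as well.

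Other genes of the microtubule and semaphorin pathways were counted in whole lists. At P1, 6.79% of all genes and 11.1% of expressed genes were lower by more than 2-fold, and 6.1% and 10.9% were higher. At P4, 5.42% and 9.94% were lower, and 9.85% and 17.4% were higher. These shares apply to each list below, and a count near them says little about its list. Of 15 other genes for microtubule-associated proteins, 7 were past 2-fold with the lower level in P1 pHes1_EPCs and none with the higher, with a median of -0.79. At P4 6 were lower and 2 higher, with a median of -0.74. Mtap2, a dendritic microtubule-associated protein gene, had differences of -1.64 at P1 and -0.90 at P4, Mtap1b of -0.01 and -1.09, Mtap7 of 0.23 and -0.25, and Mapre1, which encodes a plus-end binding protein, of 0.78 and 1.29.

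Of 17 genes for kinases, phosphatases and partners of doublecortin and CRMPs, 4 were lower and 1 higher at P1, and 2 were lower and 1 higher at P4, with medians of -0.28 and -0.10. The gene called higher at both ages was Nde1, which encodes a dynein regulator that acts in dividing progenitors, with differences of 1.62 and 2.43. Gsk3a, whose product phosphorylates CRMPs, differed by -0.01 and -0.10, Pafah1b1, which encodes the lissencephaly protein, had an FPKM of 47.8 to 56.5 in the 4 libraries, and that of Mapk8ip1 was 41.3 to 64.2.

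Of 8 genes of semaphorin signaling upstream of CRMPs, 5 were lower and 1 higher at P1, and 3 were lower and 1 higher at P4, with medians of -1.40 and -0.79. The plexin gene Plxna2 had an FPKM of 37.8 in P1 pHes1_ENCs, 2.08 in P1 pHes1_EPCs, 40.4 in P4 pHes1_ENCs and 5.03 in P4 pHes1_EPCs, so that it was low in both pHes1_EPC libraries (differences of -3.65 and -2.78). Plxna1 differed by -2.30 and -1.53, Plxna3 by -1.24 and -0.93, and the neuropilin gene Nrp1, a receptor for semaphorins and for VEGF, by 1.15 and 1.36.

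Of 9 genes for microtubule severing and depolymerizing proteins, none was lower and 3 were higher at each age, with medians of 0.13 and 0.19. Fignl1, a relative of fidgetin known for its part in DNA repair, had an FPKM of 7.04, 34.4, 1.29 and 11.9 in P1 pHes1_ENCs, P1 pHes1_EPCs, P4 pHes1_ENCs and P4 pHes1_EPCs. Spast, which encodes the severing protein spastin, differed by -0.45 and -0.21.

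Of 15 general markers of young neurons, 13 were lower at P1 and none was higher, and at P4 6 were lower and none was higher. Over expressed genes, 11.1% were lower at P1 and 9.94% at P4. The medians of these markers were -2.23 and -0.62, near those of the 10 genes, which were -2.20 and -0.63. Tubb3, the neuronal beta-tubulin gene, had an FPKM of 308, 20.5, 94.9 and 55.4 in the same order of libraries, and Cd24a one of 178, 43.8, 80.2 and 109. Snap25, a gene for synaptic vesicle release, was at 143, 10.7, 336 and 68.4.

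**Figure D5:**
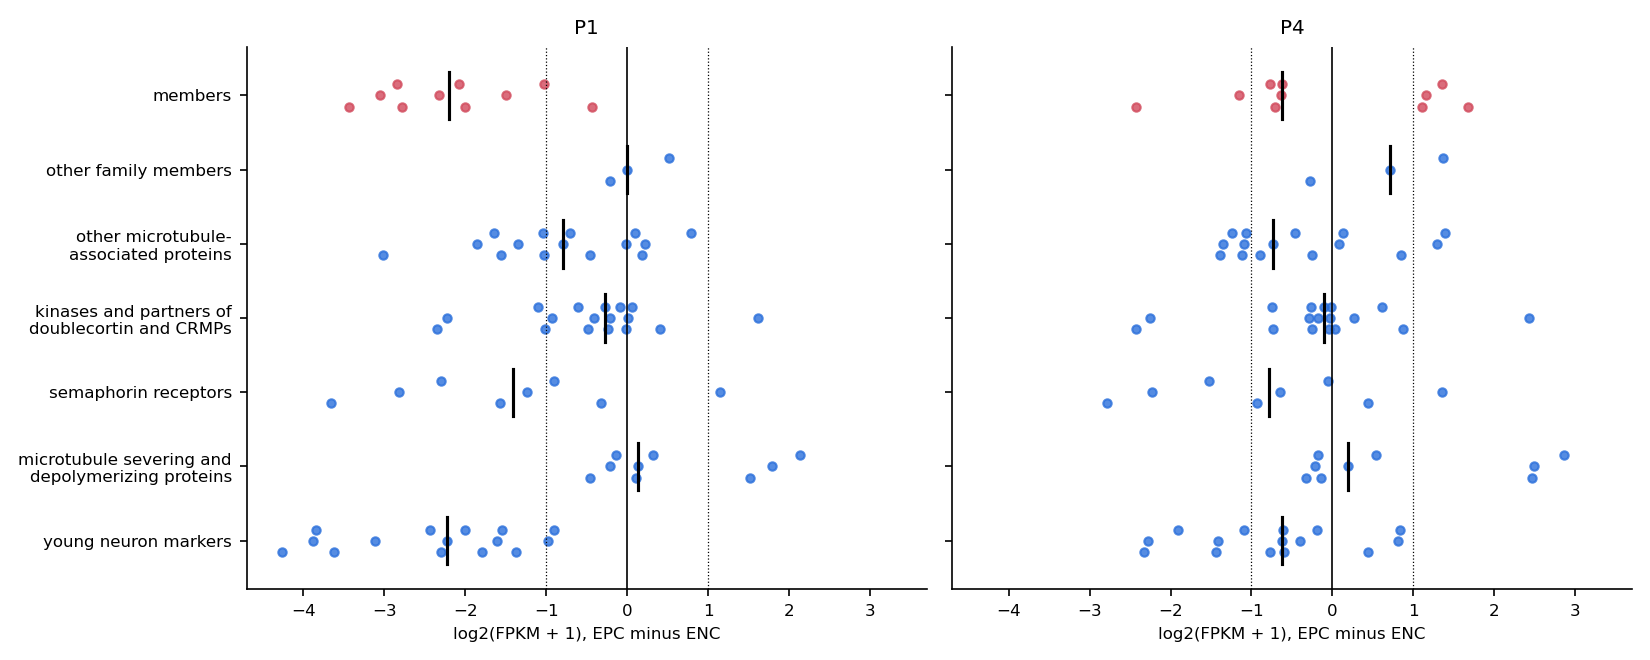
Differences of log2(FPKM + 1) between fractions, pHes1_EPCs minus pHes1_ENCs, at P1 (left) and P4 (right) for the 10 genes (red) and for the genes of each other list (blue), with black bars for the medians and dotted lines at 2-fold. The medians of the 10 genes are -2.20 and -0.63 and those of the young neuron markers -2.23 and -0.62, and the severing proteins lie around or above 0.

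Markers of retinal cell types were summed in each library to set beside these values, and their part in the differences was not tested. In P1 pHes1_ENCs, P1 pHes1_EPCs, P4 pHes1_ENCs and P4 pHes1_EPCs, Hes1, whose promoter drives the reporter, had an FPKM of 16.6, 105, 3.59 and 93.5, and the 10 Müller glia markers, Hes1 among them, summed to 345, 1336, 143 and 1979. Progenitor and cell cycle markers summed to 549, 2760, 118 and 1217, so both sums were higher in pHes1_EPCs at each age. Among the Müller glia markers, Hes5 was at 282 and Vim at 200 in P1 pHes1_EPCs. The paper proposes that progenitors and Müller glia have expression patterns in common, and these sums do not separate the cell types. The 8 rod markers summed to 638, 45.1, 4715 and 919, and the rod transcription factor gene Nrl was at 164 in P1 pHes1_ENCs and 8.51 in P1 pHes1_EPCs but at 875 in P4 pHes1_ENCs and 184 in P4 pHes1_EPCs. Ganglion cell markers, of which Nefl and Nefm are also on the list for young neurons, had low sums (42.0, 22.6, 11.7 and 6.78). These sums were lower at P4 in both fractions, but Ebf3 among them was higher at P4 in both (6.44, 1.60, 7.94 and 3.28). Bipolar cell markers (357, 17.5, 453 and 125), cone markers (252, 25.9, 438 and 105) and rod markers were higher at P4 in both. Of the bipolar cell sums, Neurod4 alone made up 347, 10.4, 437 and 113. The 11 amacrine and horizontal cell markers summed to 281, 17.5, 89.5 and 21.3. Among them Tcfap2b, a transcription factor gene of these cells, was at 109, 2.19, 7.93 and 1.24, and Slc6a9 at 19.1, 1.72, 62.6 and 10.1. Erythroid markers summed to 214, 0.857, 514 and 8.69, so pHes1_ENCs also held hemoglobin transcripts. Microglia markers summed to at most 10.2 and astrocyte markers to at most 15.2. Endothelial markers summed to 63.4, 212, 14.8 and 193, of which Kdr made up 46.9, 209, 12.01 and 189 and Cldn5 16.3, 3.49, 2.59 and 4.06, whereas Pecam1 was at most 0.142 and Tek at most 0.0409.

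In the NCBI37/mm9 assembly used for the gene tables, the genes lie on 7 chromosomes. Dcx is on the minus strand of chromosome X at 140290385 to 140367762, Dclk1 on the plus strand of chromosome 3 at 55046448 to 55342990, and Stmn2 on the plus strand of the same chromosome at 8509527 to 8561604. Stmn3 is on the minus strand of chromosome 2 at 181041164 to 181049205. Stmn4 and Dpysl2 both lie on chromosome 14, at 66963212 to 66980517 on the plus strand and at 67421701 to 67487437 on the minus strand. Crmp1 and Dpysl5 are on the plus strand of chromosome 5, at 37633319 to 37683372 and at 31014268 to 31101742. Dpysl4 is on the plus strand of chromosome 7 at 146271900 to 146287690, and Dpysl3 is on chromosome 18.

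All are protein-coding genes in the GENCODE M1 annotation, and the longest transcript has 7 exons in Dcx, 17 in Dclk1, 5 in Stmn2 and Stmn3, 8 in Stmn4, 13 in Dpysl5 and 14 in the other CRMP genes. Similarity within the families did not extend to exact matches over a whole read, and matches with mismatched bases were not searched. Of the stretches of 36 bases, the read length, in their transcripts, between 0 and 0.968% occurred elsewhere in the genome, with the highest share in Dcx, and 0 were shared between members.

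The promoters of Dcx, Stmn3, Crmp1 and Dpysl5, which were below pHes1_ENCs in pHes1_EPCs at both ages, and of Dclk1, which was not, are shown. Hes1 itself is a repressor that binds N-box (CACNAG) and class C (CACGNG) sequences, searched here on both strands. RefSeq windows of 300 bases, from 250 before to 50 after a transcription start in GRCm38.p6, were at hand for 5 of the 10 genes, as 8 windows. Of these 7 are shown, without the second one of Dcx, which overlaps the first. Each is written 5′ to 3′ on the strand of the gene, and capitals mark the letters of an N-box or class C sequence.
Dcx, window 1, chrX:143933170-143933469, minus strand: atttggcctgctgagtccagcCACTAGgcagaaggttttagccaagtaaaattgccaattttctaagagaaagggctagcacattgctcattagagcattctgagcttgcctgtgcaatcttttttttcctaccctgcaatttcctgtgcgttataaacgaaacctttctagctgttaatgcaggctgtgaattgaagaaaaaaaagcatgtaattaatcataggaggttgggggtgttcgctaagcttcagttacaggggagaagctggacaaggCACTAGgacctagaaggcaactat
Stmn3, window 1, chr2:181314451-181314750, minus strand: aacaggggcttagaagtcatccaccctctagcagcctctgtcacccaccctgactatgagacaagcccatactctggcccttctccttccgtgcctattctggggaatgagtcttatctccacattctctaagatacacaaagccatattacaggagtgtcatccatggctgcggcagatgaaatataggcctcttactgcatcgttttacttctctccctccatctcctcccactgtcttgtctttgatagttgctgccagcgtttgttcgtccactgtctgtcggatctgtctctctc
Dpysl5, window 1, chr5:30711314-30711613, plus strand: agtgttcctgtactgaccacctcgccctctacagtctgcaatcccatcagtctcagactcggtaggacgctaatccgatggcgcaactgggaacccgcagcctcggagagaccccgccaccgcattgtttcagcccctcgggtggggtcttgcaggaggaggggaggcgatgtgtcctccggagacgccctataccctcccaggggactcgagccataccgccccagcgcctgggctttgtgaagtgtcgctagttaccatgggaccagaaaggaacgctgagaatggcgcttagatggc
Crmp1, window 1, chr5:37241808-37242107, plus strand: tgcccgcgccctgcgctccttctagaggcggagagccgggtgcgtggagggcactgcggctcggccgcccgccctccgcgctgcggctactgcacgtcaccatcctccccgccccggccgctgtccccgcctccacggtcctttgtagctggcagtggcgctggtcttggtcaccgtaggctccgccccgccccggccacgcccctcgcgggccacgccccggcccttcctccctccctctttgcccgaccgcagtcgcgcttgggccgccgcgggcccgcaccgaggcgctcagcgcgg
Crmp1, window 2, chr5:37245514-37245813, plus strand: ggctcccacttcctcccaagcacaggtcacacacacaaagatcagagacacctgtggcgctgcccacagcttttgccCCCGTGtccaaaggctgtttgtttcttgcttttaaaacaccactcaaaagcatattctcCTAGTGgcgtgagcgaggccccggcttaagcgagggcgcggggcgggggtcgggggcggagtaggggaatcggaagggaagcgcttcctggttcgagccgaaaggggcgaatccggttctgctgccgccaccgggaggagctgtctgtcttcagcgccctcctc
Dclk1, window 1, chr3:55242114-55242413, plus strand: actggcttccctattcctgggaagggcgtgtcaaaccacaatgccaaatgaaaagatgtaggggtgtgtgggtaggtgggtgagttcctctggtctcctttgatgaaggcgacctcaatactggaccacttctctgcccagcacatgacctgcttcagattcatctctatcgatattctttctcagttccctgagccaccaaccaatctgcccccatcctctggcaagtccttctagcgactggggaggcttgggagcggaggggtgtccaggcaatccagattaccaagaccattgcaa
Dclk1, window 2, chr3:55461478-55461777, plus strand: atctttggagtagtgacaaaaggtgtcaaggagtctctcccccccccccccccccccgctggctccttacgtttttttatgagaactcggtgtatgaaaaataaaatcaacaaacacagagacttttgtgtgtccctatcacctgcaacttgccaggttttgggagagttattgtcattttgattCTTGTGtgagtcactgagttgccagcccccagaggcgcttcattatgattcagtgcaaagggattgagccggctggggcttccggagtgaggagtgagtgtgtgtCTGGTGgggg
At least 1 such sequence is found in 56.3% of the 32851 windows of the table, with an N-box in 42.5% and a class C sequence in 27.5%. The first Dcx window holds 2 N-boxes, at -229 and 26 from the start. Its second window holds 1 at -69, which is the same site as the one at 26 in the first. The second Dclk1 window holds 2 at -65 and 40, and the second Crmp1 window holds an N-box at -114 and a class C sequence at -173. In the Stmn3 and Dpysl5 windows and in the first windows of Dclk1 and Crmp1 these letters are not found. Binding of Hes1 to any of these windows, or an effect of it on these genes, was not tested. The base composition varied widely, with a GC content of 43.0% in the first Dcx window and 77.0% in the first Crmp1 window, against a median of 52.7% over the table. The FPKM pools all starts of a gene, so which start was in use was not measured.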

How the data were processed

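RNA from pHes1_EPCs and pHes1_ENCs sorted at P1 and P4 was sequenced as 1 library per fraction and age, in single-end reads of 36 bases. The authors aligned them to NCBI37/mm9 with TopHat 2.0.8b, after bcl2fastq 1.8.4, and deposited the FPKM that Cufflinks 2.1.1 estimated for each gene, with its 95% interval and a status, which was OK for all 40 member values. A read could map to several positions, and the libraries do not record strand. Reads and counts were not used here, so depth is known only through the intervals, whose half-width for members was 2.42% to 36.1% of the FPKM.

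Each table held 23021 lines with 22558 symbols. Small RNAs (787 lines) were left out, and for 235 symbols with several lines the line of highest FPKM was kept, which left 21828 genes. Differences are of log2(FPKM + 1), pHes1_EPCs minus pHes1_ENCs or P4 minus P1, with a limit of 2-fold and no filter on low values. With 1 library per group, no test was made. The members, the gene lists and the comparisons were chosen with earlier results of these data known, so they are no independent support. All 10 members and Stmn1, Dclk2 and Dclk3 are named, up to 4 genes of highest mean FPKM of each other list, and the 3 genes nearest in pattern to Dcx, Stmn2 and Dpysl3. Hes1, the gene of the reporter's promoter, and Mapt are named outside this rule. Genes that the tables hold under older symbols, such as Tcfap2a and Tcfap2b for Tfap2a and Tfap2b, were matched to these. Alternatives were a pseudocount of 0.1 or none, quantile normalization, median-of-ratios scaling, rescaling to equal totals, summed lines, the higher library reaching an FPKM of 1, and intervals that do not overlap. The scripts were tested on simulated data. Python 3.11.15, numpy 2.4.6, pandas 2.3.3, numba 0.67.0 and matplotlib 3.10.9 were used.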

Additional observations from a re-analysis of the deposited data

Results flagged for a closer look

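Opposite signs in paired comparisons picked out these values, which are differences on the log2(FPKM + 1) scale between single libraries and were not tested. The difference between fractions was below 0 at P1 and above 0 at P4 for 4 of the 10 genes, a pattern that 12.7% of all genes showed. For Dclk1 it was -1.50 and then 1.11, for Stmn4 -2.07 and 1.36, for Dpysl2 -0.44 and 1.16, and for Dpysl4 -1.02 and 1.68.

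The change from P1 to P4 had opposite signs in the fractions for 7 of the 10 genes, and for 19.3% of all genes and 23.3% of those that reached an FPKM of 10. In pHes1_ENCs and pHes1_EPCs, respectively, it was -2.27 and 0.34 for Dclk1, -0.80 and 1.28 for Stmn3, and -2.18 and 1.25 for Stmn4. Among the CRMP genes it was -1.90 and 0.37 for Crmp1, -1.07 and 0.52 for Dpysl2, -1.45 and 1.25 for Dpysl4, and -1.25 and 0.12 for Dpysl5. After rescaling to the same total the pHes1_EPC changes of Dclk1 and Crmp1 were 0.06 each and that of Dpysl5 was -0.18. Since both kinds of pattern are built from the same 4 libraries, a gene that shows both is not seen to do so in separate data.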

How the results depend on the processing

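With 1 library in each group, none could be left out in turn. No paired analysis was possible because the result comes from no test and each group holds a single library. Over 10 genes, 5 differences or shifts and 6 alternatives, 300 values were recomputed, of which 244 stayed within the range of their counting intervals and 56 moved beyond it. Of the 244, 50 came from summing lines, which could move nothing because each of the 10 genes has 1 line. The sign turned in 2, both the change of Dpysl5 in pHes1_EPCs, to -0.18 after rescaling to the same total and to -0.04 under median-of-ratios scaling. The count of genes more than 2-fold higher in P4 pHes1_EPCs went from 4 to 2 under quantile normalization, median-of-ratios scaling and rescaling to the same total. In pHes1_EPCs from P1 to P4, the count lower went from 1 to 2, with Dcx added, under a pseudocount of 0.1 or none, and the count higher went from 3 to 0 under rescaling to the same total. The other counts past 2-fold stayed within 1.5 times under each alternative, among them the 9 genes lower at P1. The counts of shifts and of reversals were not recomputed. Depth limits Dcx at P4 most.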
